A study of Camelus dromedarius with 10 samples.

Results

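The receptors described here are GLP1R and its relatives of the secretin family in the supraoptic nucleus (SON) of the dromedary camel. They were chosen by name: of 10 receptors (GLP1R, GLP2R, GIPR, GCGR, SCTR, GHRHR, VIPR1, VIPR2, ADCYAP1R1 and CALCRL), 9 could be paired with an Ensembl gene ID, out of 22444 gene IDs counted. The pairing used copies of the study's supplementary tables that hold only part of their rows, and it gave 4351 IDs a symbol. GCGR, the glucagon receptor, and any other gene said below to be unpaired are not in the rows used and were not analysed here. RNA was taken from the rostral SON of male camels aged 4 to 5 years. The 5 control camels had free access to food and water, and the 5 camels of the water deprivation (WD) group had food but no water for 20 days. Each library is 1 camel, from punches of the nucleus on one side of the brain, so the RNA comes from neurones, glia and vessels together. In such bulk RNA, fewer cells of a type and less RNA per cell cannot be told apart.

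Receptors of the secretin family (class B1 of the G protein-coupled receptors) bind peptide hormones through a large extracellular domain and act mainly through Gs, adenylyl cyclase and cAMP. GLP1R, GIPR, GLP2R and GCGR bind the glucagon-related peptides of gut, pancreas and brainstem, ADCYAP1R1 (also called PAC1), VIPR1 and VIPR2 bind PACAP or VIP, and CALCRL forms receptors for CGRP and adrenomedullin with the accessory RAMP proteins. In the hypothalamus, GLP-1 is known for its part in food and water intake, and PACAP is known to act on magnocellular neurones, the SON cells that make vasopressin and oxytocin.

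The oligonucleotides below are shown because GLP1R is the receptor of the family for which the study also designed a qRT-PCR assay, whose values were not analysed here. Each is 20 bases long with a GC content of 55.0%, and no base is marked by capitals.
GLP1R forward primer: ggctccttcgtgaatgtcag
GLP1R reverse primer: ccggctagagttgtccttgt

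Libraries were stranded and depleted of ribosomal RNA, and the values are read pairs counted per gene. Total counts were between 1665098 and 7518432 in control libraries and between 4227685 and 8126641 in WD libraries. A group of 5 gene IDs without a symbol took 27.7% to 76.1% of a library, most in control library 13 (CON13) and WD library 6 (WD6). Levels are given as CPM (counts scaled to a common library size) after TMM normalization, and on that scale 1 count was worth 1.19 CPM in CON13, 0.472 CPM in WD6 and 0.0859 to 0.235 CPM in the other 8 libraries. A count of 0 therefore allows a level of up to 3.57 CPM in CON13 but only 0.258 CPM in WD library 9 (WD9), for counting error alone. Marker genes of the anterior pituitary were near 0 (4 of 5 paired, summed level at most 3.93 CPM in any library, TSHB at 0 in 8 of 10 libraries). Of the markers of the neighbouring suprachiasmatic nucleus, VIP was at most 2.38 CPM, LHX1 reached 4.72 CPM, and RORB, the only 1 of 5 that passed the filter, was 12.5 to 18.6 CPM in controls and 0 to 17.0 CPM in WD camels. AVP and OXT, which define magnocellular neurones, were not paired with an ID. PDYN, which these neurones also express, was read in every library, from 113 CPM in a control to 757 CPM in a WD camel, and was itself called higher in WD by the edgeR test described next (log2 fold change 1.93, SE 0.22, adjusted p = 3.02e-04). The other 4 magnocellular markers (SIM1, OTP, CREB3L1 and ARNT2) had log2 fold changes between -0.58 and -0.03, and edgeR called none of them.

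WD and control libraries were compared with the quasi-likelihood F test of edgeR, and a gene was called at an adjusted p of at most 0.05 over the 14432 genes that edgeR's filter on low counts kept. Of the 9 receptors, 5 were kept (GLP1R, GIPR, ADCYAP1R1, VIPR1 and CALCRL) and 4 were removed (GLP2R, SCTR, GHRHR and VIPR2). None of the 5 was called by edgeR, while 3 had an unadjusted p under 0.05. Over all genes tested, edgeR called 0.499% (39 higher and 33 lower in WD), and 9.31% had an unadjusted p under 0.05. DESeq2's Wald test called 1 of the receptors, ADCYAP1R1, lower in WD, beside 1.27% of all genes with an adjusted p in that test. The groups did not overlap for 1 of the 5 receptors, again ADCYAP1R1, and for 2.62% of all genes tested. Levels are not compared between receptors, since no transcript lengths were used here.

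**Figure D1:**
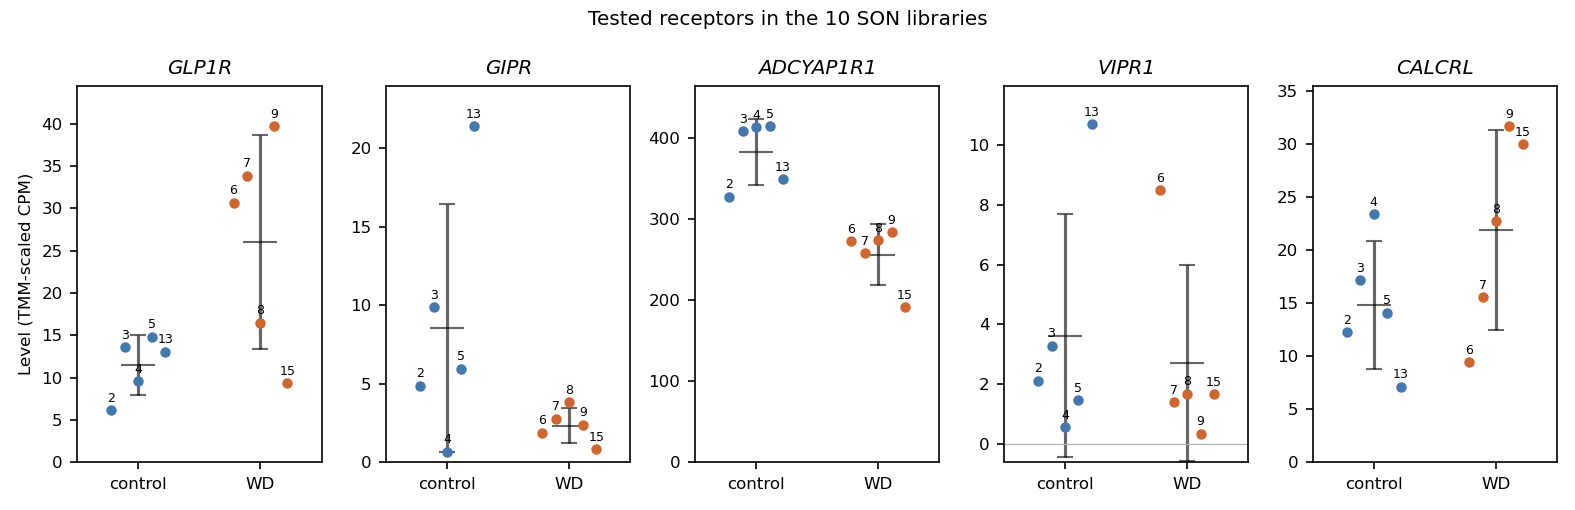
Level of the 5 tested receptors in each SON library, in TMM-scaled CPM on a linear axis of its own for each receptor. Points are camels marked with their library number, and black bars are the mean and SD of 5 camels. ADCYAP1R1 is lower in all 5 WD libraries than in any control, and GLP1R is above every control in 4 of 5 WD libraries.

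GLP1R (ENSCDRG00005014658), through which glucagon-like peptide 1 acts, had 1231 counts over the 10 libraries. Its level was 6.16 CPM in CON2, 13.6 CPM in CON3, 9.59 CPM in CON4, 14.8 CPM in CON5 and 13.1 CPM in CON13. In the WD camels it was 30.7 CPM in WD6, 33.9 CPM in WD7, 16.5 CPM in WD8, 39.7 CPM in WD9 and 9.32 CPM in WD15. Thus 4 of 5 WD libraries were above every control, and the groups overlapped through WD15 alone, which lay below 4 of the 5 controls. The mean was 11.5 ± 3.55 CPM (SD, n = 5) in controls and 26.0 ± 12.6 CPM (SD, n = 5) in WD camels, 2.27 times as much, and the WD camels also differed more among themselves. The log2 fold change was 1.21 (SE 0.34), with an adjusted p of 0.192 by edgeR and 0.0869 by DESeq2, so the difference did not pass the threshold of either test.

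The call on GLP1R changed with 1 library and with 1 covariate. Without WD15 its log2 fold change was 1.43 (SE 0.29) and edgeR's adjusted p was 0.0491, past the threshold, beside 0.376% of genes called in that fit. With the RNA integrity number (RIN) of each sample as a covariate it was 1.46 (SE 0.25) with an adjusted p of 0.00896 by edgeR, beside 0.721% of genes called. CON13 and WD15 were the only libraries with fragments under 300 bp. With fragments under 300 bp as a covariate, the log2 fold change of GLP1R was 1.22 (SE 0.33, adjusted p = 0.152 by edgeR). WD15 also had the highest summed level of 6 microglial markers, 769 CPM, against 277 to 429 CPM in the other WD libraries and 237 to 376 CPM in controls. Of 5 magnocellular markers, 3 were lower in WD15 than in any other WD camel: SIM1 (50.6 CPM against 60.4 to 87.6 CPM), OTP (17.8 CPM against 22.2 to 37.0 CPM) and CREB3L1 (2.07 CPM against 2.15 to 13.2 CPM). PDYN and ARNT2 were within the range of the other WD camels there, at 556 and 322 CPM. The summed level of the 5 magnocellular markers in WD15, 948 CPM, was also within that range (829 to 1259 CPM). The part of either cell type in the level of GLP1R was not tested.

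**Figure D2:**
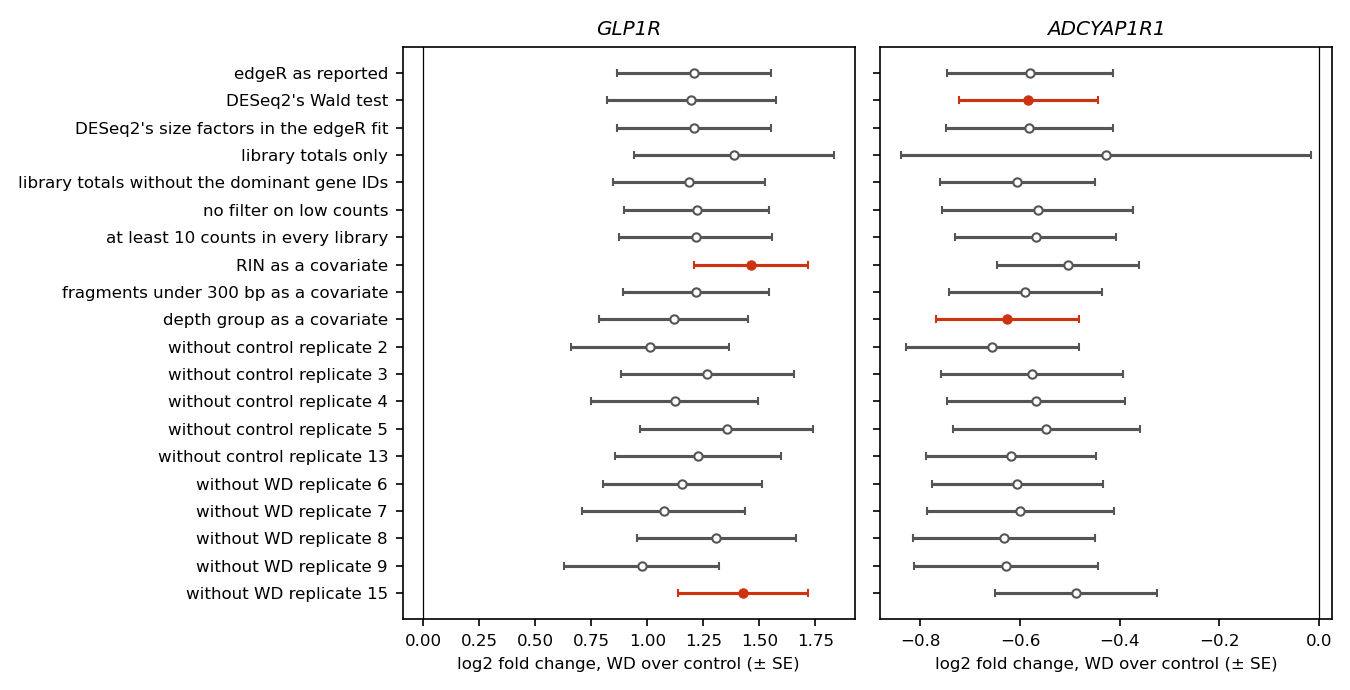
Log2 fold change of WD over control with its SE for GLP1R (left) and ADCYAP1R1 (right) in the reported edgeR fit and under 19 other settings, 1 per row. Filled red points have an adjusted p of at most 0.05, which holds for 2 settings of each receptor, and every point of a receptor lies on the same side of 0.

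GIPR (ENSCDRG00005009575) is the receptor of the gut incretin glucose-dependent insulinotropic polypeptide. It had 213 counts in all, and its level was 4.88 CPM in CON2, 9.88 CPM in CON3, 0.685 CPM in CON4, 5.97 CPM in CON5 and 21.4 CPM in CON13. The WD libraries were lower and closer together, at 1.89 CPM in WD6, 2.79 CPM in WD7, 3.82 CPM in WD8, 2.41 CPM in WD9 and, with 4 counts, the lowest level in WD15. All 5 WD camels were below the 4 other controls, and CON4 alone lay below them. The mean was 8.56 ± 7.89 CPM (SD, n = 5) in controls and 2.35 ± 1.11 CPM (SD, n = 5) in WD camels. CON13, with 18 counts of GIPR, held 50.0% of the summed control CPM, and without it the control mean was 5.35 ± 3.78 CPM (SD, n = 4). The log2 fold change was -1.60 (SE 0.63, adjusted p = 0.422 by edgeR) and -1.12 (SE 0.59, adjusted p = 0.694 by edgeR) without CON13. GLP1R and GIPR thus had fold changes of opposite sign, neither of them called.

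GLP2R (ENSCDRG00005016987), the receptor of glucagon-like peptide 2, was counted 55 times over all libraries. Its level was 0 to 2.59 CPM in controls and 0.172 to 1.89 CPM in WD camels, and the library without a count was CON13, where 0 counts allow up to 3.57 CPM. The gene was removed by the filter, so no test is given.

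ADCYAP1R1 (ENSCDRG00005002835) encodes the receptor with high affinity for PACAP and was the receptor with the most counts, 18683 in all. In controls its level was 328 CPM in CON2, 408 CPM in CON3, 414 CPM in CON4, 415 CPM in CON5 and 349.6 CPM in CON13. It was 273 CPM in WD6, 258 CPM in WD7, 274 CPM in WD8, 284 CPM in WD9 and 191 CPM in WD15. Every WD camel was below every control, with a gap between WD9 and CON2, and WD15 was the lowest of all. The mean was 383 ± 41.1 CPM (SD, n = 5) in controls and 256 ± 37.4 CPM (SD, n = 5) in WD camels, so the controls had 1.49 times the level. The log2 fold change was -0.58 (SE 0.17).

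Whether ADCYAP1R1 passed the threshold depended on the test. The adjusted p was 0.194 by edgeR and 0.00578 by DESeq2, at nearly the same log2 fold change (-0.58, SE 0.14 by DESeq2). When the shallower 5 libraries, judged by counts left after the 5 dominant gene IDs, were set apart from the deeper 5 by a covariate (depth group), edgeR's adjusted p was 0.0326, beside 1.55% of genes called in that fit. Without WD15 the log2 fold change was -0.49 (SE 0.16, adjusted p = 0.475 by edgeR). When libraries were scaled by their totals alone, the log2 fold change was -0.43 (SE 0.41) and the groups overlapped. ADCYAP1R1 lies next to GHRHR in the gene order of the RefSeq assembly mCamDro1.pat, and the strand setting of the counts is not given in the sources used here.

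VIPR1 (ENSCDRG00005020388), a receptor of both VIP and PACAP, had 100 counts. Its level was 2.12 CPM in CON2, 3.29 CPM in CON3, 0.571 CPM in CON4, 1.46 CPM in CON5 and 10.7 CPM in CON13. In WD camels it was 8.50 CPM in WD6, 1.40 CPM in WD7, 1.68 CPM in WD8, 0.344 CPM in WD9 and 1.66 CPM in WD15. CON13 and WD6, the libraries in which 1 count weighs most, were the highest of their groups, with 9 and 18 counts, and the groups overlapped almost fully. The log2 fold change was -0.24 (SE 0.83, adjusted p = 0.960 by edgeR), and it was 0.36 (SE 0.80) without CON13 and -1.15 (SE 0.78) without WD6, so no direction is given. VIPR2 (ENSCDRG00005018115), the other receptor of both peptides, had 37 counts in 7 of 10 libraries, with a highest level of 5.95 CPM in CON13 (5 counts) and no count in CON4, CON5 and WD15.

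SCTR (ENSCDRG00005012956), the secretin receptor, had 55 counts. Its level was 0.456 to 4.76 CPM in controls and 0.0859 to 2.29 CPM in WD camels. GHRHR (ENSCDRG00005002788), the receptor of growth hormone-releasing hormone and best known from the pituitary, had 76 counts, at 0.114 to 4.76 CPM in controls and 0 to 2.75 CPM in WD camels. CON13 was the highest control for 3 of the 4 receptors that the filter removed, with 4 or 5 counts each. In the deepest library, WD9, the 4 receptors had 1 or 2 counts each. When genes of at least 1 count were all tested, the log2 fold changes of GLP2R, SCTR, GHRHR and VIPR2 lay between -1.07 and -0.45, each with an SE of at least 0.87 and an adjusted p of at least 0.780 by edgeR. No difference of these 4 receptors was detected.

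**Figure D3:**
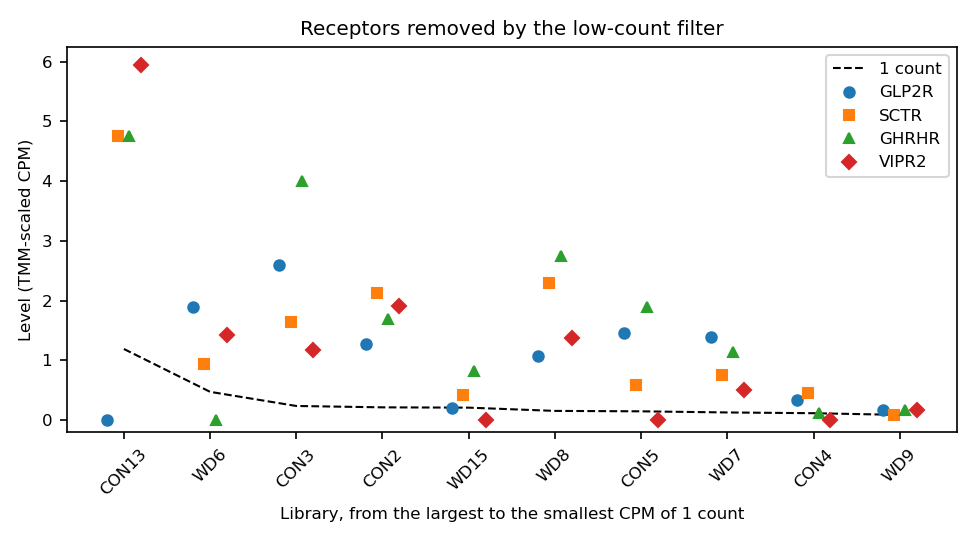
Level in TMM-scaled CPM of the 4 receptors that the low-count filter removed, in the 10 libraries ordered by what 1 count is worth, from CON13 (1.19 CPM) to WD9 (0.0859 CPM). The dashed line is the level of 1 count, and CON13 holds the highest point of SCTR, GHRHR and VIPR2 but no count of GLP2R, which is highest in CON3.

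CALCRL (ENSCDRG00005009544), the CGRP and adrenomedullin receptor that is best known from the endothelium, had 1245 counts. Its level was 12.3 CPM in CON2, 17.2 CPM in CON3, 23.4 CPM in CON4, 14.1 CPM in CON5 and 7.13 CPM in CON13. It was 9.44 CPM in WD6, 15.6 CPM in WD7, 22.8 CPM in WD8, 31.7 CPM in WD9 and 30.0 CPM in WD15. WD9 and WD15 were above every control and WD6 was below 4 of the 5 controls. The mean was 14.8 ± 6.02 CPM (SD, n = 5) in controls and 21.9 ± 9.46 CPM (SD, n = 5) in WD camels, with a log2 fold change of 0.51 (SE 0.30, adjusted p = 0.655 by edgeR). The summed level of 8 endothelial markers was 256 to 435 CPM in controls and 261 to 531 CPM in WD camels, and edgeR called none of the 8. Log2 fold changes were positive for 6 of the 8, FLT1 (0.62, SE 0.22) and KDR (0.64, SE 0.25) among them. CALCRL needs a RAMP protein to reach the cell surface, and RAMP1, RAMP2 and RAMP3 were not paired with an ID.

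The counts of GLP1R and ADCYAP1R1 were also compared within each library, where the scaling between libraries has no part. Per 100 counts of ADCYAP1R1 there were 1.88 to 3.74 counts of GLP1R in controls and 4.88 to 14.0 in WD camels. In WD camels these were 11.2 in WD6, 13.1 in WD7, 6.01 in WD8, 14.0 in WD9 and 4.88 in WD15, so that all 5 WD libraries were above every control. The log2 ratio (0.5 added to each count) was -5.10 ± 0.44 (SD, n = 5) in controls and -3.46 ± 0.69 (SD, n = 5) in WD camels, which is 1.64 higher. This ratio joins the higher GLP1R and the lower ADCYAP1R1 of the same camels and is a description without a test. After TMM normalization ADCYAP1R1 alone already separated the groups, and no share over other gene pairs was taken. The log2 ratio of GLP1R to GIPR was 1.02 ± 1.66 (SD, n = 5) in controls and 3.38 ± 0.77 (SD, n = 5) in WD camels, and only WD6 and WD9 were above every control, since CON4 had a ratio of 3.70.

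**Figure D4:**
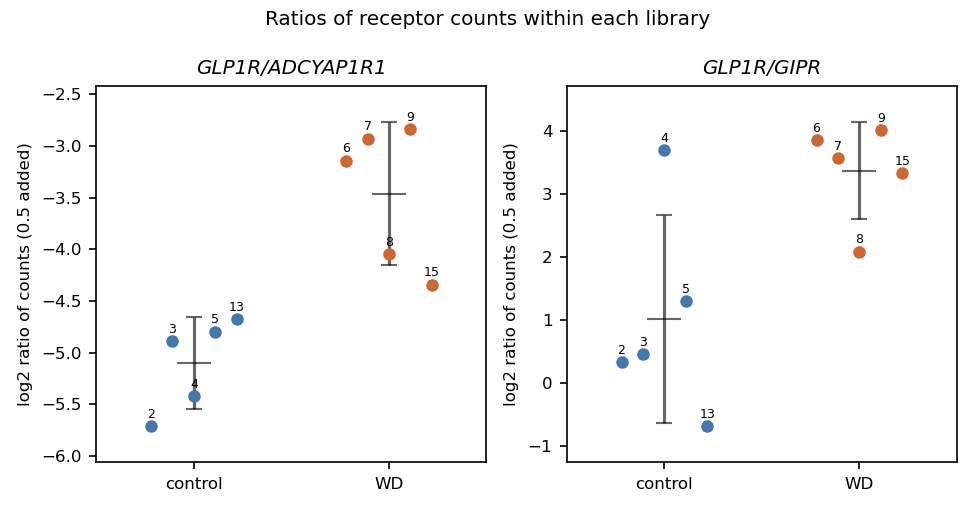
Log2 ratio of GLP1R counts to ADCYAP1R1 counts (left) and to GIPR counts (right) within each library. Points are camels marked with their library number, and black bars are the mean and SD of 5 camels. The left ratios of the 2 groups do not overlap, and the right ones do.

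Of the other class B receptors in the list, CALCR, CRHR2 and PTH2R were paired with an ID. PTH2R was removed by the filter and edgeR called neither of the others. CALCR (ENSCDRG00005000927), the calcitonin receptor and the closest relative of CALCRL, was 110 to 143 CPM in controls and 157 to 327 CPM in WD camels. Its groups did not overlap, and WD15 was by far the highest. The log2 fold change of CALCR was 0.72 (SE 0.21), with an adjusted p of 0.203 by edgeR and 0.0642 by DESeq2. With each library left out it was 0.50 to 0.80, with an adjusted p of 0.114 to 0.548 by edgeR. CALCR passed the threshold in no setting. CRHR2, a receptor of the CRH and urocortin peptides, had a log2 fold change of -0.67 (SE 0.51, adjusted p = 0.747 by edgeR), which was -0.41 without CON3 and -1.12 without WD8.

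The ligand genes that could be read had few counts in the SON. Of 10 ligand genes, 7 were paired with an ID (GCG, GIP, SCT, GHRH, VIP, ADM and ADM2) and 6 were removed by the filter, with 16 to 52 counts each over all libraries. GCG, the precursor of glucagon and of the GLP peptides, had 25 counts in 6 of 10 libraries. ADM2, which signals through CALCRL, was the only ligand tested, with a log2 fold change of -1.21 (SE 0.94, adjusted p = 0.751 by edgeR), which was -0.67 without CON13 and -2.22 without WD6. The PACAP gene ADCYAP1 and the CGRP genes CALCA and CALCB were not paired with an ID, so the ligands best known for ADCYAP1R1 and CALCRL were not analysed here. DPP4, the peptidase that inactivates GLP-1 and GIP, had a log2 fold change of 0.14 (SE 0.55), and MME (neprilysin) one of 0.43 (SE 0.45).

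The cascade downstream of these receptors was followed in a list of 26 cAMP genes, of which 24 were tested. It held 2 genes called by edgeR, both higher in WD, beside 0.499% of all genes tested, while 13 of the 24 had a positive and 11 a negative log2 fold change, with a median of 0.05 beside 0.02 over all genes. CREM, a transcription factor of the cAMP response, was 1.19 to 8.07 CPM in controls and 21.3 ± 4.29 CPM (SD, n = 5) in WD camels, all 5 above every control, with a log2 fold change of 1.77 (SE 0.27, adjusted p = 0.00313 by edgeR), and it did not pass with library totals only (adjusted p = 0.156 by edgeR). SIK1, a kinase induced by cAMP, was 5.93 to 14.3 CPM in controls and 16.7 to 33.5 CPM in WD camels. Its log2 fold change was 1.27 (SE 0.28, adjusted p = 0.0475 by edgeR), and with each library left out in turn it passed the threshold only without WD7. SIK1 passed in 5 of the 9 other settings, and its adjusted p was 0.574 by edgeR with library totals only. ADCY8, an adenylyl cyclase stimulated by calcium, was above every control in all 5 WD libraries (27.8 to 41.8 CPM against 49.2 to 64.9 CPM). Its adjusted p was 0.101 by edgeR and 0.0113 by DESeq2 at a log2 fold change of 0.71 (SE 0.18 by edgeR). None of the 4 receptor kinases tested (GRK2, GRK3, GRK5 and GRK6), which desensitize such receptors, was called.

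**Figure D5:**
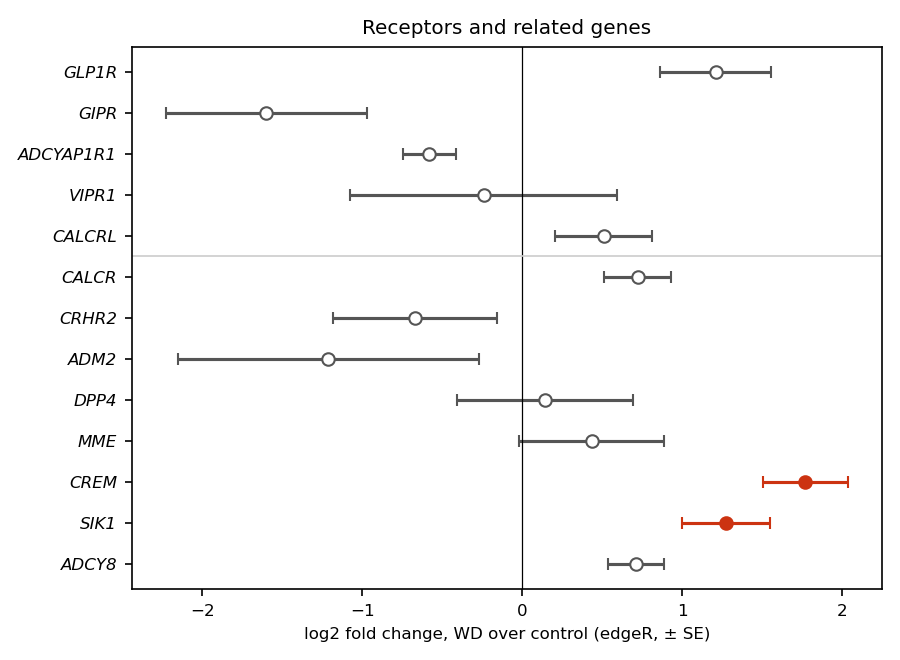
Log2 fold change of WD over control with its SE (edgeR) for the 5 tested receptors, above the grey line, and for related receptors, a ligand, peptidases and cAMP genes below it. Filled red points, CREM and SIK1, have an adjusted p of at most 0.05, and no receptor does.

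The genes with the pattern nearest to GLP1R were sought among the other 3392 tested genes with a symbol, as the smallest root mean square difference of log2 CPM over the 10 libraries after centring. This set is rich in genes with a small p, since the rows held of one symbol table are those with the smallest p in this comparison: an unadjusted p under 0.05 was found for 34.4% of tested genes with a symbol and for 9.31% of all genes tested. The nearest was CCKAR, a cholecystokinin receptor, at 0.417 against a median of 0.967 over all genes compared. TMED3, PTPRN, ATP6AP2 and RNF216 followed at 0.457 to 0.504. Of these 5 genes, edgeR called TMED3, PTPRN and RNF216, all higher in WD, with adjusted p-values of 0.0366, 0.0179 and 0.00633. Over all genes tested, edgeR called 0.499%. The genes were picked for likeness to the receptor over these same libraries, so their direction follows from the choice, as for ADCYAP1R1 below. With a library left out, PTPRN did not pass without CON2, CON3, CON4 or CON5 (adjusted p up to 0.0632 by edgeR) and TMED3 did not pass without any one of these 4 libraries, WD7 or WD9 (up to 0.146). With library totals only, none of the 3 passed (0.441 to 0.829). CCKAR was 9.25 ± 2.18 CPM (SD, n = 5) in controls and 20.2 ± 6.58 CPM (SD, n = 5) in WD camels, with a log2 fold change of 1.17 (SE 0.26) and an adjusted p of 0.0601 by edgeR and 0.0103 by DESeq2, which passes. It passed by edgeR without WD6, without WD15 and with RIN or depth group as a covariate. Picked for its likeness to GLP1R, it was also highest in WD9 (30.5 CPM) and lowest among WD camels in WD15 (12.6 CPM). For ADCYAP1R1 the nearest were OLFM1, MARF1, NCAM1, TIMP2 and UNC80, at 0.123 to 0.147 against a median of 0.600, and their log2 fold changes were between -0.62 and -0.39. None of these 5 was called, with adjusted p-values between 0.168 and 0.419 by edgeR.

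Markers of other SON cells were read beside the receptors. AGT, the only astrocyte marker of 8 with an ID, was 229 to 394.5 CPM in controls and 395.5 to 592 CPM in WD camels. Its groups did not overlap, and its adjusted p was 0.192 by edgeR and 0.0214 by DESeq2. The paper reports AGT itself as raised by WD and describes its expression in rodent magnocellular neurones. The level of AGT therefore does not measure astrocytes here. All 6 microglial markers tested had positive log2 fold changes (0.32 to 0.98), and edgeR called none of them. The oligodendrocyte markers had negative log2 fold changes for 7 of 9 genes and the mural markers, of vessel-wall cells, for 3 of 4, with no call by edgeR. HEYL, a mural marker, had a log2 fold change of -1.16 (SE 0.29), with an adjusted p of 0.104 by edgeR and 0.0351 by DESeq2, which passes. The part of these cell types in the levels of GLP1R, ADCYAP1R1 and CALCRL was not tested.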

How the data were processed

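Paired reads were obtained from 10 rostral SON samples, 5 per group. The authors used BBDuk for trimming, STAR for alignment to Camdro2 and FeatureCounts for counting read pairs per gene. They deposited these raw counts and a table of normalized values, a signal made by dividing counts by a DESeq2 size factor per library. Annotation release and strand setting are not given in the sources used here. All results came from the counts, and the normalized table was used only to check the scaling (largest relative difference 5.4e-10).

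edgeR 4.0.16 in R 4.3.3 was used with TMM, filterByExpr by group and a robust quasi-likelihood fit, with Benjamini-Hochberg adjustment over all 14432 genes kept. The SE is the log2 fold change divided by the square root of F. DESeq2 1.42.0 was the alternative tool. Log2 CPM used a prior count of 0.5, and the limit that a count of 0 allows is 3 counts. The fit was tested on simulated data. Figures and summaries were made with Python 3.11.15, pandas 2.3.3 and matplotlib 3.10.9.

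Symbols came from the study's supplementary tables. Both kinds of table were held only in part. Genes of the lists entered only through the tables of functional classes, since the rows held of the other were those with the smallest p. Named were all receptors, list genes that were called or did not overlap, others of these lists with an ID, and the 5 genes nearest to GLP1R and to ADCYAP1R1. LHX1, RORB, TSHB, AGT, FLT1, KDR, HEYL and the magnocellular genes were named as markers. Receptors, lists and the depth group were chosen with earlier results of these data known. RIN and fragment size came from the study's quality table and were used as covariates, and fragment size also to describe CON13 and WD15.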

Additional observations from a re-analysis of the deposited data

Results flagged for a closer look

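In 5 tested receptors and the ratio of GLP1R to ADCYAP1R1, 12 groups of 5 libraries were searched for a library far from the others, and chance flags about 1 in 20 groups. ADCYAP1R1 in WD15 (191 CPM, against 258 to 284 CPM in the other WD camels) was found, where the gap to the next library took 0.762 of the range of log2 CPM, above Dixon's 95% critical value for 5 samples. Without WD15 the log2 fold change of ADCYAP1R1 was -0.49 (adjusted p = 0.475 by edgeR). The 4 other WD libraries were also below every control. WD15 had the highest summed level of microglial markers (769 CPM) and, like CON13, fragments under 300 bp. The part of either in this value was not tested.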

How the results depend on the processing

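GLP1R stayed higher, and GIPR and ADCYAP1R1 stayed lower, in all their alternatives (19, 18 and 19), and CALCRL stayed higher in 18. GIPR and CALCRL had no value with at least 10 counts in every library, and VIPR1 had none there or with library totals without the dominant gene IDs. The number of genes called was 72 by edgeR, 209 by DESeq2, 10 with library totals only and 224 with depth group as a covariate. The number of receptors called was 0, and it was 1 by DESeq2 (ADCYAP1R1, -0.58, adjusted p = 0.00578), 1 with RIN as a covariate (GLP1R, 1.46, adjusted p = 0.00896 by edgeR) and 1 with depth group as a covariate (ADCYAP1R1, -0.63, adjusted p = 0.0326 by edgeR). With library totals only, 0 receptors had groups without overlap, and the median log2 fold change of all genes was 0.16. VIPR1 reversed to 0.12 with depth group as a covariate, to 0.36 without CON13 and to 0.09 without WD9. The cause of these changes was not tested.

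With each library left out, 40 (without CON3) to 102 (without WD6) genes and 0 to 1 receptors were called, the one being GLP1R without WD15, and 1 to 2 receptors did not overlap, the second being GIPR without CON4 or GLP1R without WD15. In each case the library left out was the one through which the groups overlapped, and 4.35% and 3.06% of all genes tested did not overlap in those fits. Without CON5, 42 genes were called. The log2 fold changes ranged from 0.98 to 1.43 for GLP1R, from -1.96 to -1.12 for GIPR, from -1.15 to 0.36 for VIPR1, from -0.66 to -0.49 for ADCYAP1R1 and from 0.33 to 0.72 for CALCRL. No paired analysis was possible because the groups share no replicate numbers. Few counts limit the precision of VIPR1 and of the 4 receptors that the filter removed, which had 37 to 100 counts in all. GIPR, with 213 counts, varied between control camels at like depth (6 counts in CON4 and 41 in CON5).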

Other observations

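A gene ID that the study's table names after the human readthrough locus LINC02210-CRHR1 (ENSCDRG00005021783) was picked after its values were seen, because CRHR1, the main receptor of corticotropin-releasing hormone, is a class B receptor without an ID of its own here. Its level was 7.76 to 10.7 CPM in controls and 1.55 to 5.66 CPM in WD camels, and the groups did not overlap. The mean was 8.81 ± 1.19 CPM (SD, n = 5) in controls and 3.27 ± 1.51 CPM (SD, n = 5) in WD camels. The log2 fold change was -1.50 (SE 0.34), with an adjusted p of 0.0683 by edgeR and 0.00362 by DESeq2. Which gene of the camel this ID stands for was not tested.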
